A study of Mus musculus with 6 samples.

Results

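Named non-ribosomal pseudogenes are the rows of the deposited gene table that are annotated as pseudogenes and carry the name of a known gene followed by -ps, with or without a number. Copies of ribosomal protein genes (Rpl and Rps names) and Glo1-ps were left out, and a mean of at least 0.5 FPKM (fragments scaled to transcript length and to the size of the library; the unit is inferred from the values) over the 6 libraries was required. This left 165 of the 28945 rows, and 175 further rows met every condition but the level. Since the level chose the members, their levels are given as a description; 12 members had a mean below 0.5 FPKM in CONT and 6 in DM, and entered through the other group. The RNA is that of splenic CD4+ T cells. In the CONT group 3 libraries come from C57BL/6J mice; in the DM group 3 come from db/db mice, in which the leptin receptor is mutated in every cell and which become obese and diabetic. The labels give neither age nor sex, do not name the strain on which the DM mice carry the mutation, and do not say whether each library is a separate animal, so that the p-values cover only library-to-library spread, possibly technical. Strain, age or sex may differ between the groups, and their part cannot be told apart from that of the mutation or of diabetes. Whether each copy is present and unaltered in the genome of the DM mice could not be checked. The title of the series names eldecalcitol, an active vitamin D analogue, regulatory T cells and store-operated calcium entry, but none of the 6 libraries is labelled as treated, and DM was compared with CONT.

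Pseudogenes are copies of genes that are thought to have lost the function of the original. Processed pseudogenes arise when a messenger RNA is copied back into DNA by the enzymes of a retrotransposon and inserted elsewhere in the genome, so that they lack introns and the parent's promoter; unprocessed pseudogenes arise by duplication of a stretch of the genome. Genes with abundant messenger RNA in the germ line, such as those of translation, chromatin and respiration, are frequent parents. A young copy is so like its parent that many short reads fit both, and the level assigned to each depends on how such reads are shared out. The sources used here do not say how the authors' quantification treated reads that fit several genes, or whether it used strand, so each level of a near-identical copy is uncertain.

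The closest protein-coding transcript was found for 162 of the 165 members in GENCODE M21, an annotation of GRCm38, and the median identity over the aligned part was 98.9%. By type, 138 members were processed, 25 unprocessed, 1 unitary and 1 typed only as a pseudogene. Of all 50-base windows of a member's transcript, a median of 71.9% occurred letter for letter in another gene's transcript; in 16 members every window was shared and in 5 members none was. Read along the frame of that closest transcript in 162 members, 64 held the whole coding sequence with neither a gap nor a stop codon, while 65 had a gap and 29 had a stop codon. Stop codons were counted in the member alone, and whether the closest transcript has the same codon there was not checked. A parent was assigned by name to 128 members and by sequence alone to 31, and 6 had none; for 126 of the 128 the parent by name was also the closest gene by sequence.

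The 4 members that passed the test between the groups are shown beside their closest gene, because the positions at which they differ are what sets a member's reads apart. Each stretch of 110 bases is read 5′ to 3′ on the strand of the gene, from GENCODE M21 transcripts, and capitals mark the bases that differ within the pair. For each pair the gap-free coding stretch of that length with the most differing bases was chosen.
Rnps1-ps: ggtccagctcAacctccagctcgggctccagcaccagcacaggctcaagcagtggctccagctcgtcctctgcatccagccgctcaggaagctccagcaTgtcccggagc
Rnps1: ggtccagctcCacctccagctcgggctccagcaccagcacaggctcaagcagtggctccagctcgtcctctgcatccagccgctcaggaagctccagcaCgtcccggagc
Ndufs5-ps: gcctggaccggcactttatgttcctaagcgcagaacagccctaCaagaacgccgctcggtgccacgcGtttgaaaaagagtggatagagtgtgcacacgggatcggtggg
Ndufs5: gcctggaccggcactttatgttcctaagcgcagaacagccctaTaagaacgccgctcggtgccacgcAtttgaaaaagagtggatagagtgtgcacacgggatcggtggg
Atp6v0c-ps2: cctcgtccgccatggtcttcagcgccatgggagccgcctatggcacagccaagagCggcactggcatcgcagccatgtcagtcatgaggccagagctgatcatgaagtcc
Atp6v0c: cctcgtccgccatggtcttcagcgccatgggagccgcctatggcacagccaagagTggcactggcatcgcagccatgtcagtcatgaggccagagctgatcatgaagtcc
Tmem181c-ps: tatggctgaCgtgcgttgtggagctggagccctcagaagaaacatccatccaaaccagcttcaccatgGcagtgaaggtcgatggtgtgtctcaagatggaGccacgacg
Tmem181a: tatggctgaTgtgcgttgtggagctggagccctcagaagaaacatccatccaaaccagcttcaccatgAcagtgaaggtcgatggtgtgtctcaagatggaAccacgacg
Counting from 1 at the 5′ end of the stretch, with the base of the protein-coding gene first, Rnps1-ps differed by C11A and C100T, Ndufs5-ps by T44C and A68G, Atp6v0c-ps2 by T56C, and Tmem181c-ps by T10C, A69G and A102G. Rnps1-ps lies at chr6:7982541-7983383 on the minus strand between genes and had 5 mismatches to Rnps1 over its 843 bases. Ndufs5-ps lies at chr16:42955631-42955949 on the plus strand, in an intron of Zbtb20, and had 2 mismatches to Ndufs5 over 319 bases. Atp6v0c-ps2 lies at chr6:37806086-37806550 on the plus strand between genes, and its only mismatch over 465 bases was the T56C shown. Tmem181c-ps, an unprocessed copy with introns, lies at chr17:6613753-6639790 on the minus strand, and its spliced transcript of 1386 bases was 95.9% identical to Tmem181a over the aligned part, with 9 mismatches and 48 gap bases. In Ndufs5-ps and Atp6v0c-ps2 all 106 and all 155 codons of the parent were present with no gap and no stop, and in Rnps1-ps 281 of 305 codons were, also with none. Another gene's transcript held 90.1% of the 50-base windows of Atp6v0c-ps2, 72.6% of those of Ndufs5-ps and 72.2% of those of Rnps1-ps. For Tmem181c-ps the share lay from 50% to below 75%. The levels of these copies and their parents can therefore include reads that fit both.

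Among the 165 members, 4 were called higher in DM (adjusted p below 0.05; limma on log2(FPKM + 1) over 14319 genes, Benjamini-Hochberg), against 1.19% of all genes tested, and 0 were called lower, against 0.244%. They were copies of an RNA-processing gene (Rnps1-ps), a respiratory chain gene (Ndufs5-ps), a proton pump gene (Atp6v0c-ps2) and a membrane protein gene (Tmem181c-ps). Tmem181c-ps had a CONT mean of 0.467 FPKM and entered only through its DM values, so that its difference is in part set by the choice of members. In each of the 4 pairs the closest protein-coding gene differed in the other direction, below 0 on the log2 scale, though of these genes only Rnps1 passed the test. For Tmem181a the difference was -0.35 and rested largely on CONT replicate 1: without that library it was -0.088. At an unadjusted p under 0.05, 15 members were higher, against 9.6% of all genes, and 5 were lower, against 5.87%. The groups did not overlap with DM higher in 27 members, against 13.4% of all genes, and with DM lower in 5, against 12.6%. The authors' deposited table marks 11 members as significantly higher, against 7.85% of all its rows, and 2 as lower, against 3.11%.

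Rnps1-ps is a processed copy of Rnps1, which encodes a protein of the exon junction complex that takes part in splicing and in nonsense-mediated decay. Its level was 1.21, 1.35 and 1.53 FPKM in CONT replicates 1 to 3 and 41.9, 31.5 and 38.1 FPKM in DM replicates 1 to 3. Every DM library was far above every CONT library, and the spread within each group was small. The means were 1.36 ± 0.159 (SD, n = 3) in CONT and 37.2 ± 5.25 (SD, n = 3) in DM, a difference of 4.01 ± 0.18 (SE) on the log2(FPKM + 1) scale (limma adjusted p = 0.000812), and the authors' deposited table gives a ratio of 27.3 for it. Rnps1 itself, on chromosome 17, was at 20.2, 22.2 and 15.5 FPKM in CONT and 8.60, 6.63 and 7.77 FPKM in DM. It fell by 1.22 ± 0.20 (SE) on the same scale (limma adjusted p = 0.0392), a call that did not hold when any single library was left out (limma adjusted p of 0.0559 to 0.142). The ratio of copy to parent was 0.0599 to 0.0985 in CONT and 4.76 to 4.90 in DM. Copy and parent together came to 17.1 to 23.5 FPKM in CONT and 38.1 to 50.5 FPKM in DM.

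Ndufs5-ps is a processed copy of Ndufs5, a subunit of complex I of the respiratory chain. It stood at 0.0799, 0.468 and 1.15 FPKM in the CONT libraries and at 43.1, 29.3 and 30.2 FPKM in the DM libraries. The difference was 4.53 ± 0.29 (SE) on the log2(FPKM + 1) scale (limma adjusted p = 0.00202), between means of 0.566 ± 0.542 and 34.2 ± 7.70 FPKM (SD, n = 3 each). Ndufs5 was at 4.52, 9.15 and 12.5 FPKM in CONT and 2.77, 1.54 and 2.39 FPKM in DM, and the groups did not overlap. Its difference of -1.52 ± 0.35 (SE) did not pass (limma adjusted p = 0.104), but did so without CONT replicate 1 (-1.88, limma adjusted p = 0.0204) and with libraries scaled to equal totals (-1.79, limma adjusted p = 0.0360). The copy was at 0.0177 to 0.0919 times its parent in CONT and at 12.7 to 19.1 times in DM. Zbtb20, the zinc finger repressor gene whose intron holds the copy on the same strand, was at 6.39, 1.95 and 1.17 FPKM in CONT and 0.586, 1.08 and 1.12 FPKM in DM, and its difference of -0.92 did not pass (limma adjusted p = 0.345).

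Atp6v0c-ps2 is a processed copy of Atp6v0c, which encodes the proteolipid ring subunit of the vacuolar proton pump that acidifies lysosomes. It was the only one of the 4 with a sizeable level in CONT, at 5.63, 7.11 and 9.69 FPKM against 42.2, 32.0 and 46.3 FPKM in DM. The difference was 2.29 ± 0.25 (SE) on the log2(FPKM + 1) scale (limma adjusted p = 0.0119), between means of 7.48 ± 2.05 and 40.2 ± 7.40 FPKM (SD, n = 3 each). The call was lost without DM replicate 1 (limma adjusted p = 0.0582) and without DM replicate 3 (limma adjusted p = 0.0518), at nearly the same fold change. Atp6v0c was at 16.3, 16.9 and 17.96 FPKM in CONT and 11.3, 9.97 and 11.8 FPKM in DM, with no overlap and a difference of -0.59 ± 0.17 (SE) that did not pass (limma adjusted p = 0.176). The copy was below its parent in every CONT library, at 0.346 to 0.540 times, and above it in every DM library, at 3.21 to 3.93 times.

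Tmem181c-ps is a duplicate of Tmem181a, which encodes a multi-pass membrane protein. Its values were 0.339, 0.506 and 0.556 FPKM in CONT and 4.79, 4.78 and 3.79 FPKM in DM, with no overlap; its CONT mean lay below the level required of a member. The difference was 1.89 ± 0.19 (SE) on the log2(FPKM + 1) scale (limma adjusted p = 0.009999); the call was lost without DM replicate 1, at 1.85 (limma adjusted p = 0.0531). Tmem181a was at 5.45, 3.10 and 2.47 FPKM in CONT and 2.57, 2.15 and 2.98 FPKM in DM, so that its groups overlapped. A further copy, Tmem181b-ps, with 99.4% identity to Tmem181a, was at 7.84, 4.34 and 3.42 FPKM in CONT and 6.98, 6.79 and 5.70 FPKM in DM. The genes on either side of Tmem181c-ps encode light chains of the dynein motor: Dynlt1c lies 3979 bases away and Dynlt1f 6812 bases away. Their differences were 1.07 ± 0.27 and 0.82 ± 0.22 (SE), and neither passed (limma adjusted p = 0.138 and limma adjusted p = 0.157). These neighbours and Tmem181b-ps were picked out after their values were seen.

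**Figure D1:**
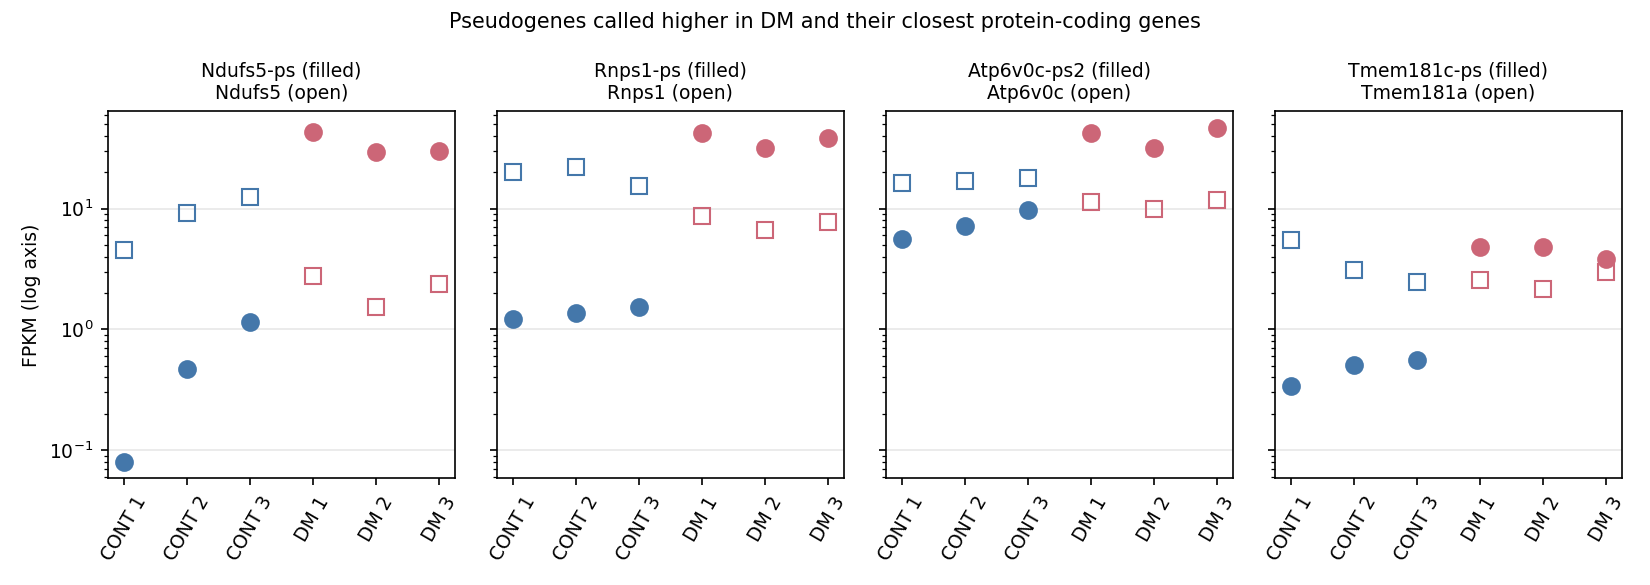
FPKM on a log axis in each of the 6 libraries for the 4 pseudogenes called higher in DM (filled circles) and their closest protein-coding gene (open squares), with CONT in blue and DM in red. Rnps1-ps, Ndufs5-ps and Atp6v0c-ps2 lie below their parent in every CONT library and above it in every DM library.

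Across the 156 members with a tested parent, 12 differed from the parent by more than 1 in log2 difference, and the 4 called members were the most extreme on the positive side, at 6.04 for Ndufs5-ps, 5.23 for Rnps1-ps, 2.88 for Atp6v0c-ps2 and 2.24 for Tmem181c-ps. Next came Rtraf-ps, a copy of an RNA-binding protein gene of the tRNA ligase complex, at 1.78. It lies over an exon of another gene on the opposite strand and can take up reads of that gene. Rtraf-ps was at 2.38, 8.01 and 10.4 FPKM in CONT and 35.8, 27.9 and 31.0 FPKM in DM, with no overlap, and its difference of 2.202 ± 0.437 (SE) just missed the threshold (limma adjusted p = 0.0692). Without CONT replicate 1 it passed, at 1.67 (limma adjusted p = 0.0159). On the negative side Hmgb1-ps8 stood farthest from its parent, at -1.75, followed by Ccnb2-ps at -1.56 and Polr2k-ps at -1.48. Without CONT replicate 1 these gaps were -0.86, -1.27 and -0.11, Polr2k-ps itself turned from -0.38 to 0.30, and the gap of Smt3h2-ps4 was 0.051 in place of 1.002. Ccnb2-ps and Ccnb1-ps are copies of genes for B-type cyclins, which drive entry into mitosis; the differences of Ccnb2 and Ccnb1 were 1.24 and 1.35 against -0.32 and 0.19 for the copies. Without CONT replicate 1 Ccnb1-ps was at -0.077. Copies that share the CONT and DM libraries with their parents are not independent of them, and many can share reads. Rtraf-ps, Polr2k-ps and these cyclin copies were also named after their values were seen.

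**Figure D2:**
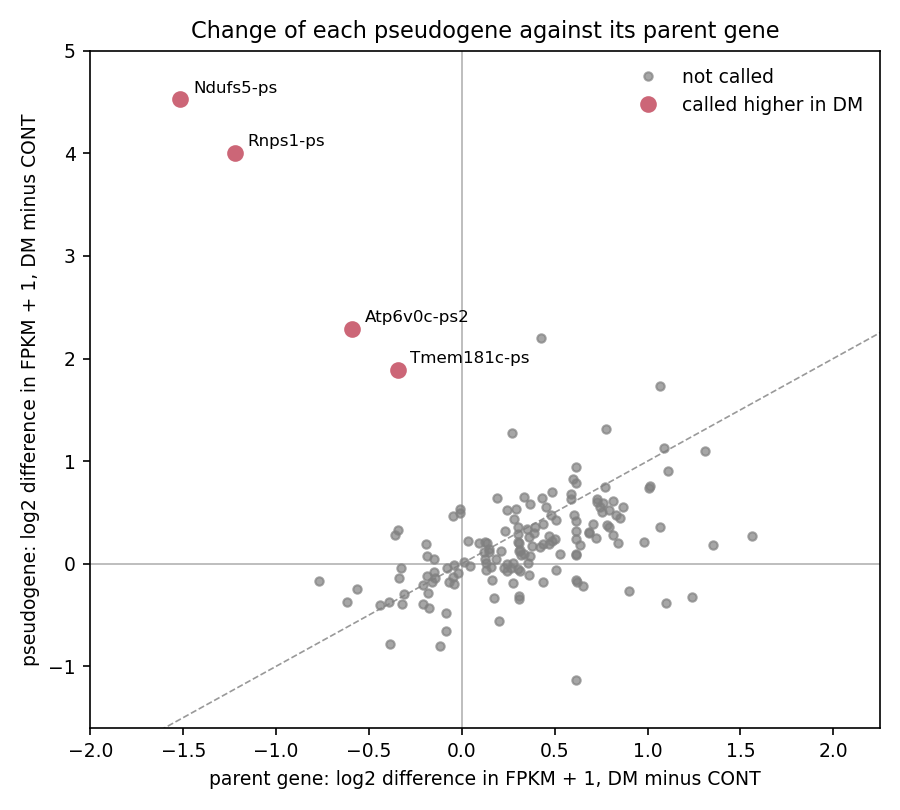
Each point is 1 of 156 pseudogenes, with the log2 difference of its parent gene (DM minus CONT, FPKM + 1) on the x axis and its own on the y axis; the dashed line marks equal differences and red marks the 4 members called. The called members lie at the upper left, where the copy is higher and the parent lower in DM, and most other points lie near the line.

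By what the parent encodes, the classes with called members were signalling, cell cycle and others (2 of 40), mitochondria and respiration (1 of 22) and RNA processing (1 of 8). None of the 37 copies of chromatin and nuclear protein genes, the 17 of translation genes, the 17 of metabolic genes, the 9 of ubiquitin, proteasome and chaperone genes, the 8 of cytoskeletal genes or the 7 of immune genes was called. Over all genes tested, 1.19% were called higher and 0.244% lower. At such shares classes of this size cannot show whether calls differ between them, and this was not tested. Beside Ndufs5-ps, the mitochondrial class held Atp5pb-ps, a copy of an ATP synthase subunit gene, at 1.61, 3.64 and 3.99 FPKM in CONT and 5.77, 5.63 and 5.34 FPKM in DM (limma adjusted p = 0.283). Median log2 differences ran from -0.17 for copies of immune genes to 0.42 for copies of RNA processing genes and 0.35 for mitochondrial ones, against 0.19 for all members and -0.01 for all genes tested. CONT replicate 1 was the lowest library for 6 of 8 RNA processing copies, 15 of 22 mitochondrial copies and 2 of 7 immune copies. Without it the median of all members was 0.07, and the class medians were not recomputed. In RNA processing, Rbm3-ps, a copy of a cold-inducible RNA-binding protein gene, differed together with its parent: it was at 4.93, 9.42 and 7.79 FPKM in CONT and 22.7, 14.0 and 15.0 FPKM in DM, a difference of 1.13, beside 1.09 for Rbm3, and neither passed (limma adjusted p = 0.129 and limma adjusted p = 0.155). Among immune copies, H2-T-ps, a nonclassical MHC class I pseudogene, was at 7.74, 7.58 and 8.49 FPKM in CONT and 3.25, 3.82 and 5.62 FPKM in DM. That difference of -0.80 ± 0.21 (SE), with no overlap, did not pass (limma adjusted p = 0.151). H2-T-ps lies over an exon of another gene on the same strand and can take up reads of that gene. Atp5pb-ps, Rbm3-ps and H2-T-ps were named after their values were seen.

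**Figure D3:**
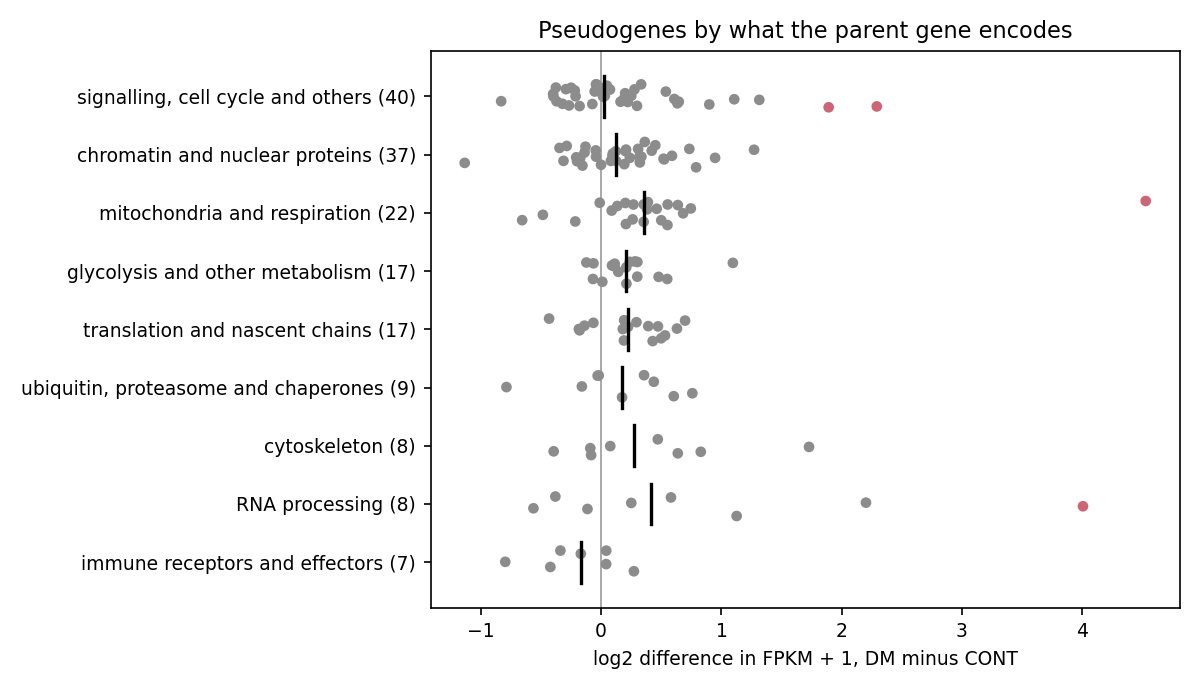
Log2 difference (DM minus CONT, FPKM + 1) of each of the 165 pseudogenes, grouped by what the parent gene encodes, with the number of members in parentheses; black bars are class medians and red points are the 4 members called. Medians lie between -0.17 and 0.42; the called members lie at 1.89 to 4.53, a range that also holds the uncalled Rtraf-ps at 2.202.

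Levels were spread widely: 36 members reached 10 FPKM in the mean of the 6 libraries, 41 were below 1 FPKM, and the 5 highest held 39.2% of the members' summed level. Just inside the level required of a member lay Rbx1-ps (0.518 FPKM), Mrto4-ps2 (0.524 FPKM) and Mrps36-ps1 (0.525 FPKM), and just outside it lay M6pr-ps (0.496 FPKM), Ppp1r2-ps2 (0.480 FPKM) and Gstm2-ps1 (0.466 FPKM). None of the 12 members with the highest mean was among those called. Tpt1-ps3, a copy of the translationally controlled tumour protein gene that is identical to Tpt1 where aligned and shares all of its 50-base windows, was at 136, 310 and 489 FPKM in CONT and 288, 512 and 317 FPKM in DM. Tpt1 was at 643, 1430 and 2026 FPKM in CONT and 1334, 2387 and 1450 FPKM in DM, in the same order of libraries as its copy. Eif4a-ps4, a copy of the gene for the initiation helicase eIF4A1, was at 42.9, 117 and 97.5 FPKM in CONT and 133, 87.0 and 78.6 FPKM in DM. Ubb-ps, a copy of a polyubiquitin gene, was the steadiest of the first 4, at 54.3, 67.3 and 84.1 FPKM in CONT and 82.7, 83.9 and 93.9 FPKM in DM.

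Dynlt1-ps1 is a copy identical where aligned to the dynein light chain genes Dynlt1c, Dynlt1a and Dynlt1f. This copy was at 8.53, 23.6 and 28.2 FPKM in CONT and 95.8, 49.7 and 49.8 FPKM in DM. Its groups did not overlap, but the difference of 1.73 ± 0.47 (SE) did not pass (limma adjusted p = 0.160). Smt3h2-ps4, a copy of the Sumo2 modifier gene, was at 2.86 FPKM in CONT replicate 1 against 27.5 to 62.1 FPKM in the other 5 libraries, and its log2 difference was 1.27 with that library and 0.097 without it. Gpx4-ps2, a copy of the gene for the lipid-peroxide-reducing enzyme GPX4, was at 7.01, 22.04 and 26.7 FPKM in CONT and 53.2, 30.7 and 28.0 FPKM in DM, a difference of 1.09 beside 1.31 for Gpx4 (limma adjusted p = 0.333 and limma adjusted p = 0.326). Without CONT replicate 1 these were 0.54 and 0.64. Morf4l1-ps1, a copy of a chromodomain protein gene, was at 30.3 to 57.6 FPKM in CONT and 60.6 to 71.9 FPKM in DM, again without overlap and without passing (limma adjusted p = 0.380). Leaving out CONT replicate 1 took Morf4l1-ps1 from 0.52 to 0.25 and Pisd-ps1 from -0.66 to -0.34 in log2 difference. Pisd-ps1, from the gene of a mitochondrial phospholipid decarboxylase, was highest in CONT replicate 1 at 62.5 FPKM and at 19.5 to 35.1 FPKM in the others. Capza1-ps1, from an actin capping gene, and Ptges3-ps, from a co-chaperone gene, differed by -0.08 and -0.03 on the log2 scale, at means of 34.5 and 32.9 FPKM in CONT and 32.3 and 33.3 FPKM in DM.

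**Figure D4:**
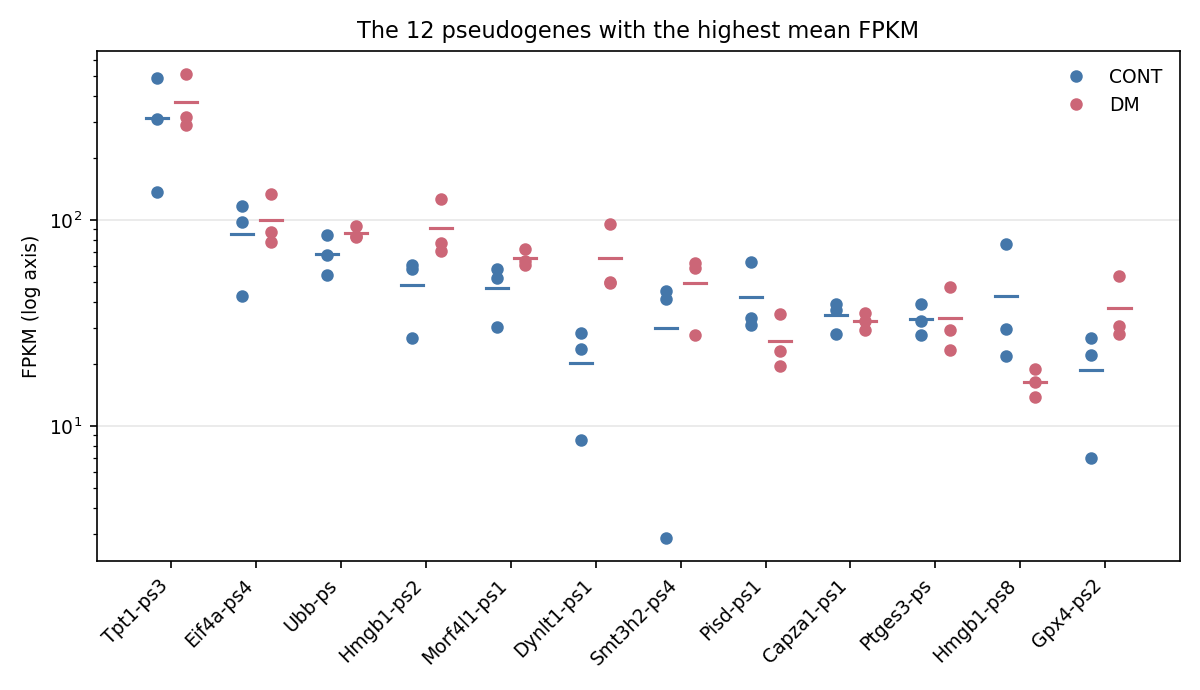
FPKM on a log axis in each library for the 12 pseudogenes with the highest mean, with CONT in blue, DM in red and bars at the group means of 3 libraries. Tpt1-ps3 lies above all others, and Dynlt1-ps1, Hmgb1-ps2, Morf4l1-ps1, Gpx4-ps2 and Hmgb1-ps8 have groups that do not overlap, none of them called.

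Of the 156 members with a tested parent, 66 were below 0.1 times the parent's level and 18 were above it, with a median of 14.7% of the parent. These levels pool both groups: Ndufs5-ps, Rnps1-ps and Atp6v0c-ps2 are among the 18 and lay below the parent in every CONT library. Members above their parent included Pisd-ps1 at 5.26 times, Dynlt1-ps1 at 4.13 times and both Gapdh copies, Gapdh-ps15 on chromosome Y at 1.88 times and Gapdh-ps16 at 1.20 times. The ratio for Dynlt1-ps1 is to Dynlt1c alone, at a mean of 10.3 FPKM. Dynlt1a and Dynlt1f, at 2.57 and 8.04 FPKM, were equally close by sequence. Dynlt1b, at 99.7% identity, had a mean of 38.3 FPKM against 42.6 FPKM for the copy. Gapdh, the glycolytic enzyme gene, was listed at only 4.89 FPKM in CONT and 5.32 FPKM in DM in the mean, below its copies at 9.59 and 6.14 FPKM; 94.8% and 99.2% of the copies' 50-base windows are shared with other genes. The absolute difference from the parent, in log2, showed no steady order with the share of windows found in other genes: its median was 0.289 below 25%, 0.363 from 25% to below 50%, 0.245 from 50% to below 75%, 0.177 from 75% to just short of all, and 0.281 where all were shared.

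Hmgb1, the gene of an abundant DNA-bending chromatin protein, had 9 named copies, the most of any parent. Their mean levels spanned 71.1-fold, from 0.986 FPKM for Hmgb1-ps4 to 70.1 FPKM for Hmgb1-ps2, and none was called. Hmgb1-ps2, at 26.7, 57.9 and 60.7 FPKM in CONT and 127, 71.0 and 77.5 FPKM in DM, ran with Hmgb1, which was at 21.6, 50.7 and 44.1 FPKM in CONT and 81.4, 44.5 and 49.1 FPKM in DM. Hmgb1-ps8, which lies in an intron of another gene and can take up its reads, did the opposite. Hmgb1-ps8 was at 76.5, 29.5 and 21.8 FPKM in CONT and 13.8, 16.3 and 18.9 FPKM in DM. It had the lowest log2 difference of all members, -1.13 ± 0.44 (SE), and it did not pass (limma adjusted p = 0.301). Both the value and the rank rested on CONT replicate 1: without it Hmgb1-ps8 was at -0.62, and Bambi-ps1 was lower, at -1.01. Hmgb1-ps2 went from 0.95 to 0.57 and Hmgb1 from 0.61 to 0.25. Hmgb1-ps8 was also the least alike, with 95.8% identity and 21.8% of its windows shared, against 98.6% and 83.5% for Hmgb1-ps2. The 4 copies of Cbx3, a heterochromatin protein gene, ran from -0.35 to 0.20 and the 3 copies of Tpt1 from -0.18 to 0.39 in log2 difference.

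**Figure D5:**
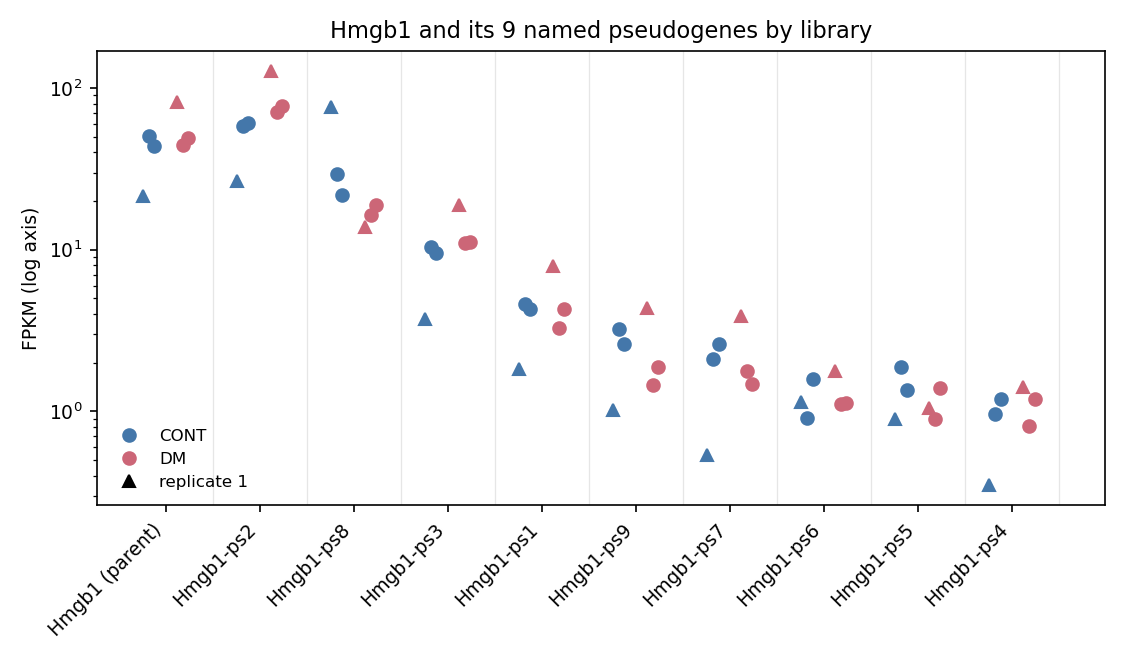
FPKM on a log axis of Hmgb1 and its 9 named pseudogenes in each library, with CONT in blue, DM in red and replicate 1 of each group as a triangle. CONT replicate 1 is lowest for Hmgb1 and Hmgb1-ps2 and highest for Hmgb1-ps8.

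CONT replicate 1 was unlike the rest. It was the lowest library for 94 of 165 members (57.0%), against 31.5% of all genes tested and 86.2% of 167 ribosomal protein pseudogenes. The share of FPKM in ribosomal protein genes was 6.97% there and 12.95% to 18.2% in the other libraries, and the depth in reads is unknown. Without it the members' median log2 difference was 0.07 in place of 0.19, and the 4 called members were still called, at 4.29 for Ndufs5-ps, 3.96 for Rnps1-ps, 2.13 for Atp6v0c-ps2 and 1.83 for Tmem181c-ps. The members' summed level was 972, 1538 and 1761 FPKM in CONT and 1937, 1878 and 1687 FPKM in DM (exact permutation test, two-sided p = 0.2; the smallest possible is 0.1), and as a share of all FPKM it was 0.392% to 0.476% in CONT and 0.438% to 0.472% in DM (exact permutation test, two-sided p = 0.8). Without Tpt1-ps3, the highest member, the members' summed level was 836, 1228 and 1272 FPKM in CONT and 1649, 1366 and 1370 FPKM in DM. These groups did not overlap (exact permutation test, two-sided p = 0.1, the smallest possible). The total of all FPKM was likewise lower in every CONT library than in every DM library. The sum without Tpt1-ps3 was not tested as a share of that total, so its separation cannot be told apart from that of the totals. The 4 called members together came to 7.26 to 12.9 FPKM in CONT and 97.6 to 132 FPKM in DM.

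As a further reference, 11 of 167 ribosomal protein pseudogenes (6.59%) and 27 of 1172 other pseudogene rows (2.30%) were called higher, against 2.42% of the members; the differences between these shares were not tested. Scaling the libraries to equal totals moved the median log2 difference of all genes from -0.01 to -0.28 and that of the members from 0.19 to -0.05. Genes of nonsense-mediated decay and of the silencing of retroelements were also counted, and whether either pathway acts on the members was not tested. Of 21 genes of nonsense-mediated decay, which degrades transcripts with early stop codons, 0 were called higher and 1 lower. The shares over all genes tested were 1.19% and 0.244%. The gene called lower was Rnps1 itself, whose call did not hold when any single library was left out. At an unadjusted p under 0.05, 1 of the 21 was higher, against 9.6% of all genes, and 4 were lower, against 5.87%. Of 12 tested genes that silence retroelements and intronless copies 0 were called by limma in either direction, and at an unadjusted p under 0.05 0 were higher and 1 lower; Mov10, an RNA helicase gene, was at 16.8, 8.08 and 6.28 FPKM in CONT and 4.80, 4.28 and 4.61 FPKM in DM.

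The defining markers of CD4 T cells were present in every library, with a summed level of 1233 to 1617 FPKM in CONT and 704 to 1085 FPKM in DM, 0 of 9 called. The summed markers of basophils, macrophages and monocytes, plasma cells, neutrophils and dendritic cells were higher in every DM than in every CONT library. Those of erythroid, B, CD8 T and NK cells overlapped between the groups. The 4 basophil markers, all called higher, summed to 1.86 to 6.29 FPKM in CONT and 66.1 to 321 FPKM in DM, with Fcer1a at 0 in CONT replicate 1. Those of macrophages and monocytes summed to 19.999 to 47.8 FPKM in CONT and 201 to 922 FPKM in DM (1 of 5 called), and those of plasma cells to 15.9 to 111 FPKM and 275 to 496 FPKM (2 of 5 called). Neutrophil markers came to 7.03 to 102 FPKM and 112 to 1224 FPKM (0 of 5 called), erythroid markers to 80.9 to 321 FPKM and 187 to 4315 FPKM (0 of 5 called), and dendritic cell markers to 1.55 to 2.07 FPKM and 8.54 to 23.9 FPKM (1 of 4 tested called). B cell markers were at 3.51 to 15.4 FPKM in CONT and 8.18 to 276 FPKM in DM, highest in DM replicate 3. The CD8 T cell pair stood at 7.51 to 8.61 FPKM in CONT and 4.76 to 51.7 FPKM in DM, and the NK cell markers at 16.0 to 31.4 FPKM and 18.4 to 49.8 FPKM. The part of these other cells in the pseudogene differences was not tested. In bulk RNA, a change in the number of cells of a type and a change in RNA per cell cannot be told apart.

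Where the members lie was described from the same annotation. Between genes lay 111 members, in an intron of another gene 39, over an exon on the opposite strand 8 and over an exon on the same strand 7. The median log2 difference was 0.19 between genes, 0.22 in introns, 0.20 over opposite-strand exons and -0.34 over same-strand exons, and 3 of the called members lay between genes and 1 in an intron. Members in introns or over exons can take up reads of their host, and with strand handling not given these cannot be separated. The neighbouring genes of Rnps1-ps, C1galt1 and Mios, had log2 differences of 0.07 and 0.19, and those of Atp6v0c-ps2, Trim24 and the member Ybx1-ps2, had -0.16 and 0.25, none of them called.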

How the data were processed

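The 6 libraries, 3 CONT and 3 DM, hold total RNA of splenic CD4+ T cells; Trizol extraction and Illumina library protocols are given per the labels' protocols. The submitters' processing notes name GRCm38, cutadapt 1.9 and FastQC. Aligner and quantifying program were not given in the sources used here. Values the authors deposited are taken here as FPKM: the name of the table calls them counts and its header gives no unit, but they are not whole. Multiplied by transcript length, 15.1% to 16.0% of low values fell within 0.02 of a whole step, against 3.50% to 3.59% for the median step size tried, so most did not, and depth is unknown. The authors' deposited table also gives a p-value and a q-value, a ratio (fold change) and its log2; their test is not stated. Unused per-sample columns numbered 0.

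Genes with a mean of at least 0.5 FPKM over the 6 libraries (14319) entered limma 3.58.1 (R 4.3.3) as log2(FPKM + 1) (trended, robust prior variance; Benjamini-Hochberg adjusted p below 0.05), which understates the change of low genes. The script was tested on simulated data. All 165 members were tested and matched by identifier to GENCODE M21; closest genes came from blastn (BLAST 2.17.0). Members were classed by what the parent encodes. Named are the called members, the 12 most abundant, their parents, 3 rows on each side of the level and others, picked after their values were seen. Members and lists were chosen with earlier results of these data known. Sums were compared with exact permutation tests in scipy 1.17.1. Alternatives were other filters, pseudocounts, scalings, a constant prior, a replicate block, another threshold and leaving out each library. Figures were drawn with matplotlib 3.10.9.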

Additional observations from a re-analysis of the deposited data

How the results depend on the processing

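The call of Rnps1-ps and Ndufs5-ps held under all 15 alternatives, with log2 differences of 3.73 to 4.67 and 4.29 to 6.07. Tmem181c-ps was lost under 1 alternative, without DM replicate 1. Atp6v0c-ps2 was lost under 3: without DM replicate 1, without DM replicate 3, and with no filter on low values (limma adjusted p = 0.0565, with 28945 genes tested). The number of members called higher was 2 to 5 when single libraries were left out, with 2 without DM replicate 1 and 5 without CONT replicate 1, and 3 with no filter. None was called lower under any alternative. Across all genes tested, calls numbered 206 as reported, 401 at a threshold of 0.1, 28 with no filter and 25 to 172 with single libraries left out (25 without DM replicate 1, 59 without DM replicate 3, 88 without CONT replicate 3).

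The replicate numbers do not pair the libraries: same-numbered libraries deviated from their group means with correlations of -0.356, -0.373 and -0.202. With the replicate block 4 members and 178 genes were called, and Rnps1 was not (limma adjusted p = 0.129).

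Among the called and the 12 most abundant members and their parents, 18 values changed sign, all of uncalled genes; of the members named for other reasons, without CONT replicate 1 Polr2k-ps (0.30), Ccnb1-ps (-0.077) and Gapdh-ps16 (-0.25) also did. Scaling to equal totals gave -0.058 for Eif4a-ps4, -0.049 for Eif4a1, -0.055 for Ubb, -0.098 for Morf4l1, -0.082 for Sumo2 and -0.19 for Ptges3. With single libraries left out, the log2 difference ran from -0.11 to 0.81 for Tpt1-ps3, -0.14 to 0.58 for Eif4a-ps4, -0.22 to 0.0089 for Capza1-ps1, -0.31 to 0.19 for Ptges3-ps, -0.031 to 0.80 for Tpt1, -0.054 to 0.49 for Eif4a1, -0.11 to 0.55 for Sumo2, -0.20 to 0.022 for Pisd and -0.098 to 0.34 for Ptges3. The cause was not tested.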
